A study of Rattus norvegicus with 102 samples.

Results

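The dentate gyrus (DG) libraries of 34 rats were compared between the 2 series of rat identifiers in the table, 16 rats numbered R9 and 18 rats numbered R1 or R2 (here R1-R2). The study holds 1 library of each of 3 hippocampal subfields per rat, and the DG libraries are 34 beside 34 of CA1 and 34 of CA3 from the same animals. Poly-A mRNA was sequenced on the Ion Proton in male Fischer 344 rats. Young rats (Y) were 5 to 6 months old, and aged rats of 17 to 22 months were divided by an episodic memory task into aged-unimpaired (AU, suffix OG) and aged-impaired (AI, suffix OB) animals. The R9 series held 5 young, 6 AU and 5 AI rats, and the R1-R2 series 5 young, 6 AU and 7 AI rats. The description of the study gives 2 institutions, one with 5 young and 13 aged rats and the other with 5 young and 11 aged rats, and the R1-R2 and R9 series hold 13 and 11 aged rats. No label ties an identifier to an institution, and no label gives a dissection or library batch, so what differed between the series cannot be told apart.

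The DG is a narrow sheet of granule neurons folded around the hilus. It lies close to the thalamus and to the fimbria, a bundle of myelinated axons that borders the lateral ventricle. The ventricle is lined by ependymal cells with motile cilia, and its choroid plexus, an epithelium that makes cerebrospinal fluid, hangs from the edge of the fimbria. A hand dissection of a hippocampal subfield can therefore carry RNA of oligodendrocytes, ependyma and choroid plexus together with that of neurons.

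Levels are normalised counts, that is, reads divided by a factor for the depth of the library. Differences are R9 minus R1-R2 on the scale log2(normalised count + 1) with status (Y, AU, AI) as a covariate, given with the standard error, for 16 and 18 rats. This scale understates the change of low genes. Adjusted p-values are two-sided limma tests with Benjamini-Hochberg adjustment over all genes tested, and a gene was called at an adjusted p under 0.05. Recovered reads ranged from 5672753 to 18499338 per DG library in R9 (median 9743152) and from 4478984 to 18739670 in R1-R2 (median 9611060). In bulk tissue, fewer cells of a type and less RNA per cell cannot be told apart.

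The DG label was checked against markers of its granule neurons. Their mean log2 level, each gene centred over the libraries of the 3 subfields, was highest in the DG library among the 3 libraries of the rat in 18 of 18 R1-R2 rats and in 11 of 16 R9 rats. The exceptions were R9781 (DG -1.45, CA1 0.81), R9881 (DG -0.48, CA1 0.79), R9865 (DG 0.17, CA3 0.58), R9872 (DG 0.29, CA1 0.88) and R9874 (DG 0.52, CA1 0.59). All 5 are R9 rats. The subfield labels of these 5 libraries are therefore in doubt, and whether libraries were exchanged or tissue was mixed is not given in the sources used here. They are the libraries labelled DG of these rats (below, the 5 libraries). The DG comparison over all groups is also given without them, an alternative chosen after the data were seen. The comparisons in CA1, in CA3 and within rats were not fitted without these rats.

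Of 16192 genes tested in the DG, 3120 differed between the series, or 19.3%. The 1653 genes higher in R9 were 10.2% of those tested and the 1467 lower in R9 were 9.06%. The median difference over all genes was 0.01, with medians of 0.46 among the higher and -0.38 among the lower calls. Differences over 1 on the log2 scale were mostly upward, in 171 called genes against 20. The 171 include genes, described below, that were tested only through R9 and so had to differ. These were not counted apart. Without the 5 libraries, 2698 of 16138 genes were called, 2105 of them also called with all libraries. Complete separation was rare. In 3 genes (0.0185%) every R9 library exceeded every R1-R2 library, and in 0 genes (0%) was every R9 library below. The separated genes were Cfap43, Fhad1 and 1 gene that the table gives without a symbol.

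Several genes of the motile cilium, the beating organelle of ependymal cells, were among those higher in R9. Genes with a mean under 5 over the 34 DG libraries were not tested, so a gene whose R1-R2 mean was under 5 was tested only through its R9 libraries and had to differ. Such genes are given below by their values alone, with no test. Cfap43, a cilium and flagellum protein, ranged from 13.5 to 429 normalised counts in R9 (median 86.6) and from 3.13 to 11.7 in R1-R2 (median 5.66). The lowest R9 library, R9865, was above the highest R1-R2 library, R1930. The difference was 3.58 ± 0.30 (limma, adjusted p = 2.02e-10). Fhad1, the other separated gene with a symbol, codes for a forkhead-associated domain protein and ranged from 11.5 to 115 in R9 (median 27.1) and from 0.542 to 10.1 in R1-R2 (median 4.17). The series again did not overlap, with a difference of 2.69 ± 0.28, but Fhad1 reached the mean of 5 only through R9 and so had to differ.

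Tmem212, a marker of ependymal cells, was at 0 in 16 of 18 R1-R2 libraries and reached 1.69 in the others. In R9 it ranged from 0 to 101.9 (median 18.8), and 15 of the 16 libraries were above every R1-R2 library. R9865 was the only R9 library at 0. The difference was 4.17 ± 0.35. Spag17, part of the central pair of the axoneme, had the same arrangement, with 16 of 18 R1-R2 libraries at 0, a highest R1-R2 value of 2.03 and an R9 range of 0 to 78.1 (median 13.6). The difference was 3.66 ± 0.37. Tmem212 and Spag17 both reached the mean of 5 only through R9 and so had to differ.

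Cfap44, the partner of Cfap43 in the axoneme, ranged from 3.38 to 500.2 in R9 (median 51.4) and from 0 to 4.32 in R1-R2 (median 0.852). Only R9865 lay within the range of R1-R2. The difference was 5.00 ± 0.41 in a gene that had to differ, since only R9 brought it to the mean of 5. Dnah6, an inner arm dynein heavy chain, ranged from 6.76 to 286 in R9 (median 61.6) and from 0 to 10.9 in R1-R2 (median 5.49), a difference of 3.62 ± 0.39 (limma, adjusted p = 4.68e-08). Drc7, of the nexin-dynein regulatory complex, differed by 3.32 ± 0.35 and Cfap161 by 3.11 ± 0.32, both likewise tested only through R9. R9881 was the highest R9 library for Cfap43, Cfap44, Tmem212, Spag17, Fhad1, Drc7 and Dnah6, while R9781 was highest for Cfap161. Both are among the 5 R9 rats whose granule markers were higher outside the DG library, and without the 5 libraries the differences were 3.36 for Cfap43, 4.82 for Cfap44, 4.10 for Tmem212, 3.46 for Spag17, 2.42 for Fhad1 and 3.49 for Dnah6. Of these, Cfap43 and Dnah6 had an R1-R2 mean of at least 5, and both were called without the 5 libraries.

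**Figure D1:**
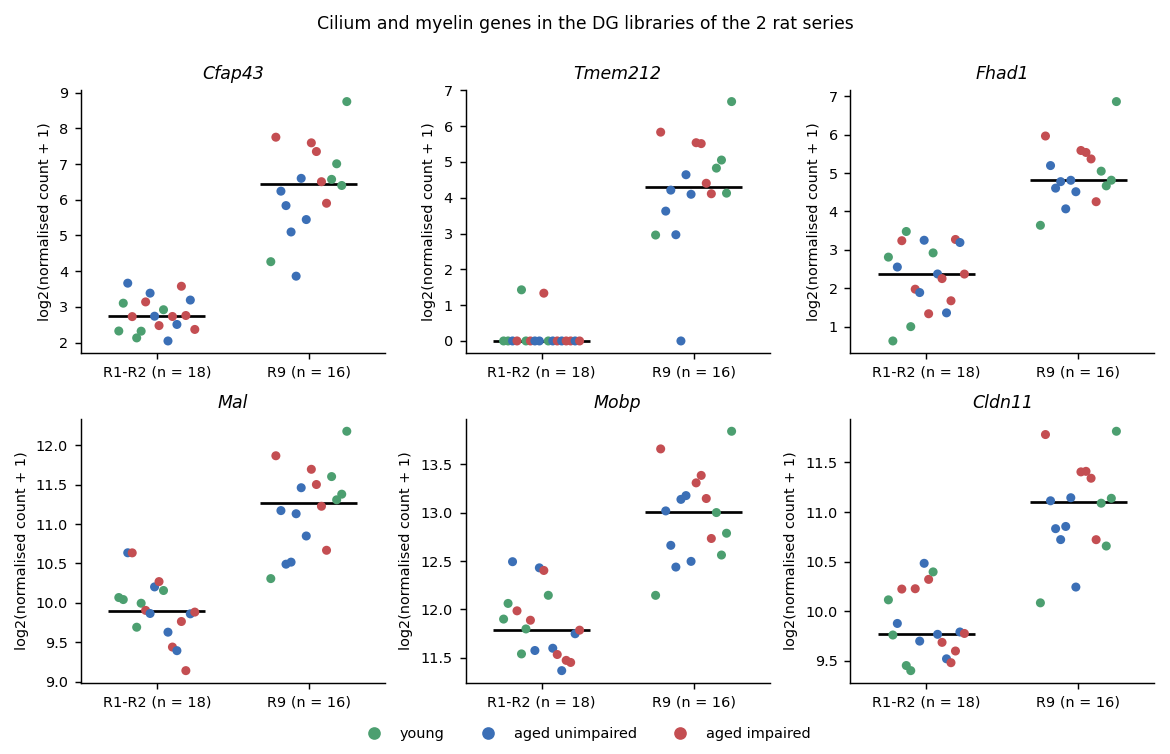
Levels of Cfap43, Tmem212 and Fhad1 and of 3 myelin genes in the 34 DG libraries, as log2(normalised count + 1) on the vertical axis, with 1 point per rat coloured by age and memory group and a bar at the median of each series. All 16 R9 libraries are above all 18 R1-R2 libraries for Cfap43 and Fhad1, 15 of 16 for Tmem212, and 13, 14 and 14 of 16 for Mal, Mobp and Cldn11.

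The other leading genes were of mixed function. Tnnt1, slow skeletal troponin T, ranged from 22.4 to 482 in R9 (median 93.2) and from 3.99 to 27.4 in R1-R2 (median 12.8). All R9 libraries but R9780 exceeded all R1-R2 libraries, and the difference was 3.16 ± 0.30 (limma, adjusted p = 3.22e-09). Aurkb, a mitotic kinase, was at 0 in 6 R1-R2 libraries and ranged up to 7.81 there, against 2.25 to 264 in R9 (median 77.2). The difference was 4.60 ± 0.44 in a gene tested only through R9. Mki67, the common marker of cycling cells, was lower in R9 at -0.44 ± 0.12 (limma, adjusted p = 0.00862), with 82.0 to 173 in R9 and 89.7 to 249 in R1-R2. That call was lost without the 5 libraries (-0.30, adjusted p = 0.0914). Prc1, an organiser of the mitotic spindle chosen after its values were seen, was higher in R9 by 2.20 ± 0.26. Kcnk16, a 2-pore potassium channel tested only through R9, had a difference of 2.95 ± 0.31. Cryab, a small heat shock protein abundant in oligodendrocytes, was higher by 1.22 ± 0.13, with 9 of 16 R9 libraries above all R1-R2 libraries.

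Tnnt1 is also on the list of thalamic markers, and it stood apart from that list. Of the 9 thalamic genes tested, 3 were higher and 1 lower, beside 10.2% and 9.06% of all genes, with a median of 0.18. Prkcd, a kinase of thalamic relay neurons, ranged from 56.6 to 946 in R9 (median 117) and from 56.4 to 148 in R1-R2 (median 88.1). The value of 946 was that of R9881, the call was lost in 11 of 34 omissions of single libraries, R9881 among them, and without the 5 libraries the difference was 0.36 (adjusted p = 0.107). Tnni3, the neighbour of Tnnt1 in the GRCr8 annotation and chosen after its values were seen, had a difference of 1.24 ± 0.32 but was tested only through R9. Dnaaf3, the next gene, needed to assemble ciliary dynein and likewise chosen after its values were seen, differed by 0.51 ± 0.21 (limma, adjusted p = 0.0854). On the recovered reads Dnaaf3 was called by edgeR (0.64, adjusted p = 0.0409) and by DESeq2 (0.65, adjusted p = 0.0274). The counting of reads from overlapping or neighbouring transcripts here was not tested.

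Markers of ependyma and motile cilia (here cilium genes) were then taken as a list. Of 23 genes listed, 18 were in the table and 16 were tested, and Foxj1, the regulator of motile cilia, was not analysed here. In R9, 13 were higher and 1 was lower (Lrrc23, -0.57), with a median of 1.04 against 0.01 over all genes. Of the 16, Tmem212, Spag17 and Mlf1 passed the filter on low values only through the R9 libraries and so had to differ. Among the other 13, 10 were higher and 1 lower, beside 10.2% and 9.06% of all genes, with a median of 0.87. Dnah9, an outer arm dynein and by far the most abundant member, did not pass (-0.23 ± 0.14, 635 to 2014 in R9 and 458 to 2003 in R1-R2), though on omission of R2189 it was called lower (-0.32, adjusted p = 0.0399), and Enkur did not pass (0.05 ± 0.12). With Dnah9 included, the summed level of the list overlapped widely, at 1105 to 3329 in R9 and 852 to 2383 in R1-R2. Hydin, a central pair protein, ranged from 47.4 to 419.9 in R9 and from 19.7 to 108 in R1-R2, a difference of 0.91 ± 0.21 that was not called without the 5 libraries (0.56, adjusted p = 0.053). For Mlf1 the difference was 3.04 ± 0.40. Without the 5 libraries, 6 of the 13 were higher and 1 was lower, with a median of 0.56.

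All members of the myelin list that were tested were called. The 12 oligodendrocyte genes were higher in R9, with differences of 0.82 to 1.29 and a median of 1.04, and all 12 were also called without the 5 libraries (median 0.90). Their summed level ranged from 60935 to 198087 in R9 (median 105657) and from 38168 to 80749 in R1-R2 (median 48231). Mal, a proteolipid of compact myelin, ranged from 1267 to 4626 in R9 (median 2463) and from 563 to 1589 in R1-R2 (median 950.5). In 13 of 16 R9 libraries it exceeded every R1-R2 library, and the difference was 1.29 ± 0.15 (limma, adjusted p = 1.36e-07).

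Cldn11, the claudin of the myelin sheath, ranged from 1084 to 3602 in R9 and from 674 to 1430 in R1-R2 and differed by 1.18 ± 0.13. Mobp, a myelin basic protein of oligodendrocytes, differed by 1.14 ± 0.13, with medians of 8251 and 3546. Mbp, the major myelin basic protein, was the most abundant member at 31961 to 97349.5 in R9 and 20159 to 52484 in R1-R2, and it differed by 0.99 ± 0.14 (limma, adjusted p = 6.17e-06). R9780 was the lowest R9 library and R9881 the highest for Mal, Cldn11, Mobp and Mbp. The lowest R9 values overlapped the highest R1-R2 values in all 4 genes.

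Precursors of oligodendrocytes did not form such a block. Of 6 genes 3 were higher, beside 10.2% of all genes, with a median of 0.18. Vcan, a proteoglycan, was higher by 0.72 ± 0.11 (404 to 982 in R9, 209.9 to 477 in R1-R2). Pdgfra, the receptor that defines the precursors, was higher by 0.35 ± 0.09, and Neu4, a sialidase, by 0.48 ± 0.12. Cspg4, which codes for the proteoglycan NG2, differed by 0.01 (95% confidence interval -0.26 to 0.28).

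Choroid plexus genes were uneven. Of 18 listed genes 15 were in the table and 10 were tested, and 4 of these were higher in R9, with a median of 0.79. Again 3 had passed the filter only through the R9 libraries. Of the other 7 only 2 were higher, beside 10.2% of all genes, with a median of 0.06. Ttr, transthyretin, the dominant transcript of choroid plexus, ranged from 51.1 to 4296 in R9 (median 256) and from 0 to 2650.0 in R1-R2 (median 14.2). The highest values were those of R9881 and, in R1-R2, R2176, so the ranges overlapped, and 12 R1-R2 libraries were below every R9 library. Ttr differed by 3.13 ± 0.84 (limma, adjusted p = 0.00875), but it was not called by edgeR (1.30, adjusted p = 0.265) or DESeq2 (1.44, adjusted p = 0.15) on the recovered reads.

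Folr1, a folate receptor of the plexus, was at 0 in 11 R1-R2 libraries and ranged up to 10.3 there, against 3.65 to 57.7 in R9 (median 15.5). The difference was 3.07 ± 0.36, and that of Clic6, an intracellular chloride channel, 2.49 ± 0.43. Both genes had to differ, having reached the mean of 5 only through R9. Mfrp, a frizzled-related membrane protein, was higher by 1.13 ± 0.31. Calml4 differed by 0.06 (95% confidence interval -0.26 to 0.37), and Aqp1, the water channel of the plexus, by -0.07 (adjusted p = 0.905). Without the 5 libraries, 2 of the 7 genes not tested through R9 alone were higher, with a median of 0.23.

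Astrocytes and microglia had smaller medians. Of 12 astrocyte genes 5 were higher, beside 10.2% of all genes, with a median of 0.19. Slc1a2, the main glutamate transporter, ranged from 9322 to 14924 in R9 (median 11584) and from 5603 to 12088 in R1-R2 (median 8262). It differed by 0.50 ± 0.09 (limma, adjusted p = 0.000136), and Slc1a3, the other astrocytic glutamate transporter, by 0.34 ± 0.07. Aqp4, the water channel of astrocyte endfeet, was higher by 0.51 ± 0.11 and Gjb6, a connexin, by 0.46 ± 0.10. Gfap, the astrocytic intermediate filament, differed by -0.01 (95% confidence interval -0.22 to 0.20).

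Of 11 microglial genes 4 were higher, beside 10.2% of all genes, with a median of 0.20. Ctss, a lysosomal protease, differed by 0.38 ± 0.09 (2619.9 to 4057 in R9 and 1506 to 4156 in R1-R2) and Itgam by 0.46 ± 0.13, the second of which was not called without the 5 libraries (adjusted p = 0.119). The call for Aif1 (0.35 ± 0.12) was lost in 14 of 34 omissions of a single library. Csf1r, the receptor that microglia need to survive, differed by 0.14 (95% confidence interval -0.04 to 0.32).

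**Figure D2:**
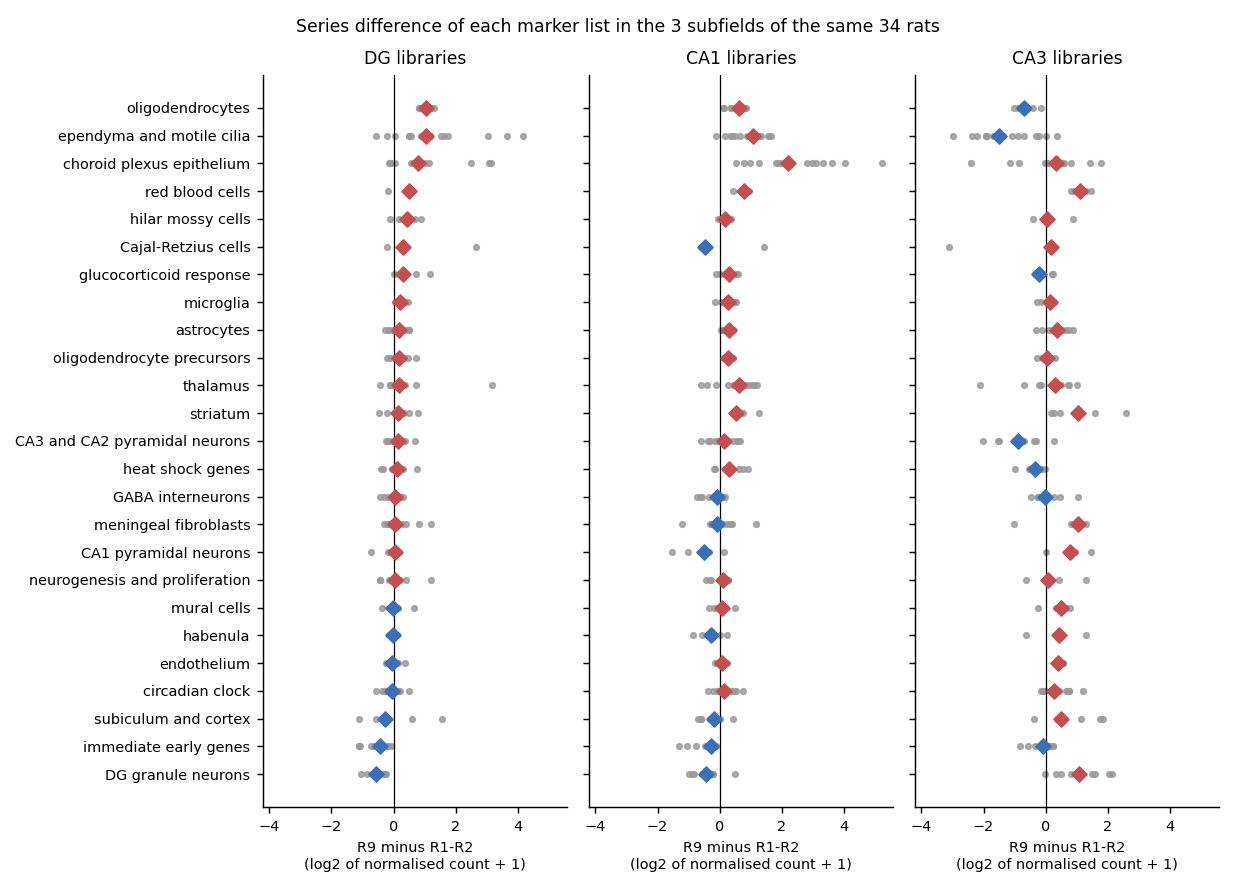
Difference R9 minus R1-R2 of the members (grey points) and the median (diamond) of each marker list with more than 1 gene tested, on the horizontal axis as log2(normalised count + 1), in the DG, CA1 and CA3 libraries of the same 34 rats. The medians of oligodendrocytes and of ependyma and motile cilia are 1.04 and 1.04 in the DG, 0.62 and 1.09 in CA1, and -0.71 and -1.49 in CA3. Genes that passed the filter through 1 series alone, and so had to differ, are included.

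Markers of the granule neurons lay on the other side. All 10 that were tested had negative differences (-0.25 to -1.05), with a median of -0.57. Of these 4 were called, beside 9.06% of all genes called lower. C1ql3, a synaptic organiser of mossy fibres, ranged from 122 to 959 in R9 (median 539) and from 582 to 1271 in R1-R2 (median 931). In 9 R9 libraries it was below every R1-R2 library, and the difference was -0.84 ± 0.19 (limma, adjusted p = 0.00225). C1ql2, its relative, ranged from 90.4 to 1648 in R9 (median 826) and from 751 to 2697 in R1-R2 (median 1234), a difference of -1.05 ± 0.26 (limma, adjusted p = 0.00573).

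The 5 libraries were chosen by this same list, so leaving them out had to bring its differences nearer 0, and the values without them are a description only. R9781 was the lowest R9 library for C1ql2, Dsp, Pdyn and Sema5a, and R9881 for C1ql3. Without the 5 libraries the median of the list was -0.03, with C1ql3 at -0.46 and C1ql2 at -0.54. Dsp, desmoplakin, differed by -0.70 ± 0.25 with all libraries (limma, adjusted p = 0.0471), a call lost in 23 of 34 omissions of a single library, and by -0.18 without the 5. Pdyn, the precursor of dynorphin, differed by -0.61 ± 0.24 (adjusted p = 0.0714), with a low of 137 in R9781 against 1085 to 3088 in R1-R2. Its call was gained on omission of R9780, R2232 or R9875. Sema5a, the most abundant member, differed by -0.32 ± 0.17 (adjusted p = 0.184).

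Ranked by adjusted p, the first 12 lower genes differed by less than 1 on the log2 scale. Kirrel3, an adhesion molecule of mossy fibre synapses, ranged from 576 to 1288 in R9 (median 906) and from 978 to 2353 in R1-R2 (median 1406). In 11 R9 libraries it was below every R1-R2 library, and the difference was -0.64 ± 0.10 (limma, adjusted p = 3.12e-05). Dpysl4, a collapsin response mediator, ranged from 275 to 793 in R9 (median 497) and from 539 to 870.5 in R1-R2 (median 739.6), a difference of -0.58 ± 0.10 (limma, adjusted p = 6.25e-05). Nos1, neuronal nitric oxide synthase, ranged from 332 to 712 in R9 (median 456) and from 496 to 1225 in R1-R2 (median 736) and differed by -0.65 ± 0.11 (limma, adjusted p = 8.67e-05).

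Adcy8, a calcium-stimulated adenylyl cyclase, had medians of 131 in R9 and 244 in R1-R2 and differed by -0.82 ± 0.14. Prss12, the synaptic protease neurotrypsin, differed by -0.76 ± 0.13, Efnb3, an ephrin, by -0.69 ± 0.12 and Auts2, a neurodevelopmental regulator, by -0.68 ± 0.12. The RNA-binding protein Celf5 (-0.38 ± 0.07), the chromatin subunit Dpf1 (-0.46 ± 0.08) and Serinc2 (-0.72 ± 0.12) completed the group, with AABR07067896.1 at -0.51 ± 0.09. R9781 or R9881 was the lowest R9 library in all of these 11 genes but Dpf1 and AABR07067896.1, and each of the 11 was also called without the 5 libraries, Kirrel3 at -0.51 (adjusted p = 0.00291) and Nos1 at -0.65 (adjusted p = 0.00112).

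Immediate early genes, which follow neuronal activity within minutes, all had negative differences. Of 11 tested 5 were lower in R9, beside 9.06% of all genes, with a median of -0.43. Fos ranged from 17.7 to 109 in R9 (median 33.7) and from 32.5 to 155 in R1-R2 (median 77.8). In 8 R9 libraries it was below every R1-R2 library, and the difference was -1.08 ± 0.20 (limma, adjusted p = 0.000321). Fosb ranged from 46.4 to 219.6 in R9 and from 125 to 292 in R1-R2 and differed by -0.73 ± 0.14 (limma, adjusted p = 0.000438), and Npas4, a transcription factor induced by activity, by -1.11 ± 0.29 (limma, adjusted p = 0.00738). Egr1 differed by -0.43 ± 0.13, while Arc (-0.17 ± 0.17) and Junb (-0.08 ± 0.11) did not pass. R9865 was the highest R9 library for Fos, Fosb, Npas4, Egr1, Arc and Junb. Without the 5 libraries, R9865 among them, 8 of the 11 were lower, with a median of -0.53, and Fos differed by -1.41 (adjusted p = 1.71e-05).

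Targets of the glucocorticoid receptor had the opposite sign. Of 6 tested 4 were higher in R9, beside 10.2% of all genes, with a median of 0.29. Pdk4, a kinase that restrains pyruvate dehydrogenase, ranged from 65.3 to 209 in R9 (median 107) and from 24.0 to 105 in R1-R2 (median 44.1). In 15 R1-R2 libraries it was below every R9 library, and the difference was 1.19 ± 0.18 (limma, adjusted p = 2.46e-05). Sgk1, a kinase induced by corticosterone, differed by 0.73 ± 0.15 and Fkbp5, a chaperone of the receptor, by 0.31 ± 0.09. Klf9 differed by 0.19 ± 0.09 (adjusted p = 0.139). Pdk4, Sgk1 and Fkbp5 were also called without the 5 libraries, at 1.15, 0.70 and 0.40. Sgk1 is also a gene of oligodendrocytes, whose markers moved with the series, and the part of these cells in its difference was not tested.

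Of 14 circadian clock genes 1 was higher and 3 were lower, beside 10.2% and 9.06% of all genes, and 10 did not pass, with a median of -0.05. Arntl, the activator of the clock, ranged from 229 to 384 in R9 (median 283) and from 312 to 425 in R1-R2 (median 378). In 11 R9 libraries it was below every R1-R2 library, and the difference was -0.36 ± 0.06 (limma, adjusted p = 0.000124). Nr1d1, a repressor of Arntl, was lower (-0.57 ± 0.14), as was Tef, an output gene (-0.23 ± 0.06). Cry1, a repressor of the loop, was higher, at 168 to 238 in R9 and 94.0 to 205 in R1-R2 (0.50 ± 0.09, limma, adjusted p = 0.000147). Dbp differed by 0.07 and Cry2 by -0.02. The hour of tissue collection is not given in the sources used here.

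**Figure D3:**
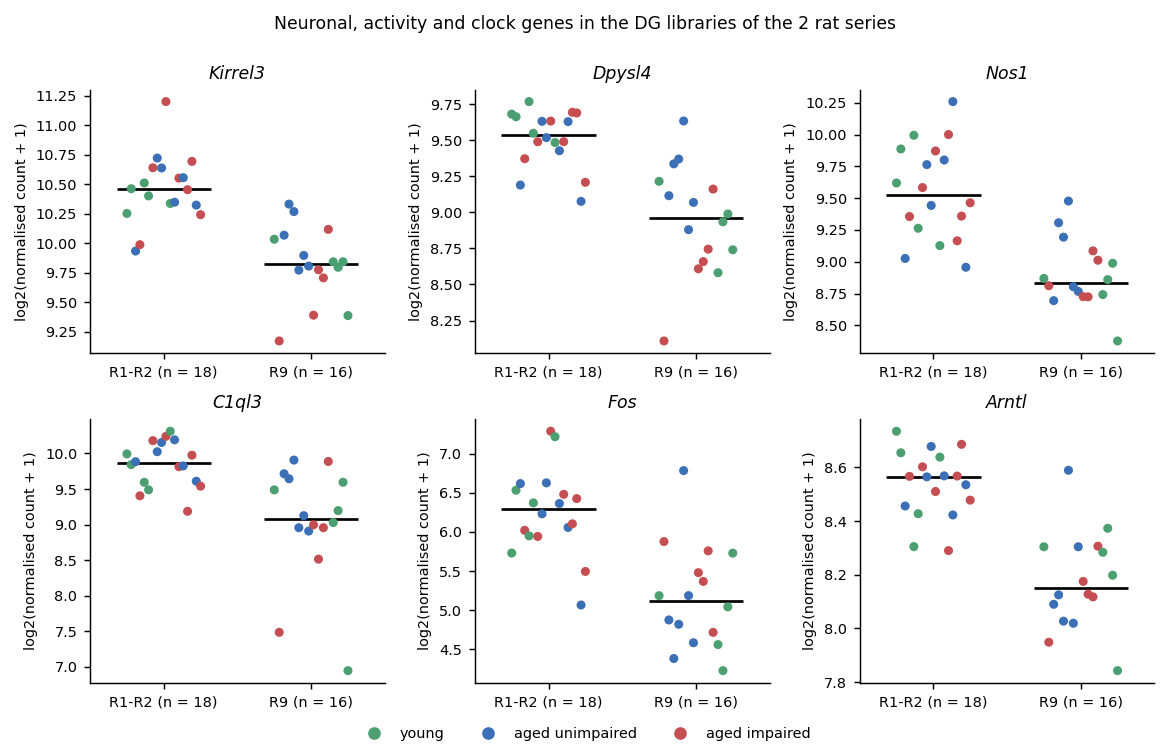
Levels of 6 genes lower in R9 in the 34 DG libraries, as log2(normalised count + 1) on the vertical axis, with 1 point per rat coloured by age and memory group and a bar at the median of each series. The ranges of the series overlap in all 6, with 11, 10, 10, 9, 8 and 11 of 16 R9 libraries below every R1-R2 library for Kirrel3, Dpysl4, Nos1, C1ql3, Fos and Arntl.

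The lists of other neurons and tissues had few calls, and the shares over all genes were 10.2% higher and 9.06% lower. None of 11 interneuron genes was called by limma (median 0.05, 1 at an unadjusted p under 0.05) or by edgeR or DESeq2, with Gad1 at 0.05 (95% confidence interval -0.16 to 0.27) and Sst at -0.18 (-0.45 to 0.09). Of 6 CA1 pyramidal genes 1 was lower (Ndst4, -0.74), with a median of 0.04, and of 11 CA3 and CA2 genes 2 were higher (Amigo2, 0.69, and Rgs14, 0.38, a call lost in 15 of 34 omissions of a single library), with a median of 0.13. The hilar mossy cell list had a median of 0.42 and 1 higher gene of 4 (Glipr1, 0.68, a call lost in 24 of 34 omissions). Subiculum and cortex had 1 higher (Ctgf, 0.59) and 3 lower genes of 8, with a median of -0.27. The lower genes were Tshz2 (-1.11 ± 0.32), Tle4 (-0.24) and Nr4a2 (-0.35, a call lost in 19 of 34 omissions). Tshz2 was not called by edgeR (-0.90, adjusted p = 0.112) or DESeq2 (-0.90, adjusted p = 0.0784), and R9865 stood at 3403, against 218 to 1696 in R1-R2.

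Endothelium had 1 higher gene of 9 (Slco1a4, 0.36, lost in 11 of 34 omissions), mural cells 1 of 8 (Tagln, 0.65), meningeal fibroblasts 2 of 11 (Lum, 1.20, and Igf2, 0.82) and red blood cells 1 of 4 (Alas2, 0.60, lost in 20 of 34 omissions). The medians of these lists were -0.05, -0.01, 0.05 and 0.49. Over all genes 10.2% were higher in R9, so 1 call in a list of this size is no result about the list. Of 6 genes of neurogenesis and proliferation 1 was higher (Igfbpl1, 1.22) and 2 were lower (Neurod1 and Mki67, both -0.44), and of 3 Cajal-Retzius genes 1 was higher (Tp73, 2.67, which multiciliated cells also express). The neurogenesis list had a median of 0.03, the Cajal-Retzius list 0.31 and 7 heat shock genes 0.10, with 1 of the 7 higher (Hspb1, 0.77). Habenula (2 tested), striatum (7 tested) and pituitary hormones (1 tested) had no call by limma, edgeR or DESeq2, with 0, 2 and 0 genes at an unadjusted p under 0.05. Striatal genes were high in 1 rat, R9872, with 519 for Rgs9 and 2008 for Ppp1r1b, and on its omission Rgs9 became lower in R9 (-0.64, adjusted p = 0.00242). The 10 mitochondrially encoded genes in the table were listed at 0 in all 34 DG libraries.

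The same contrast in CA1 and CA3 used other libraries of the same rats, which are not an independent sample of animals. In CA1, 1236 of 16385 genes were called (7.54%), 723 higher (4.41%) and 513 lower (3.13%). In CA3, 3067 of 16471 were called (18.6%), 1408 higher (8.55%) and 1659 lower (10.1%). The tissue lists took different signs in the subfields. In CA1, 8 of 12 oligodendrocyte genes and 6 of 16 cilium genes were higher in R9, as were 8 of 15 choroid plexus genes. In CA3, 10 of 12 oligodendrocyte genes and 14 of 18 cilium genes were lower in R9, and 8 of 10 granule neuron genes were higher. The CA3 and CA2 pyramidal list had 8 lower genes of 12 in CA3. As in DG, a gene that passed the filter on low values through R9 alone, or through R1-R2 alone, had to differ. Such genes were not separated in CA1 and CA3. The counts given there, those of cilium and choroid plexus genes among them, can therefore include genes that had to differ.

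The levels of Cfap43 show this order. Its medians in R1-R2 were 5.66 in DG, 24.3 in CA1 and 265 in CA3, and in R9 they were 86.6, 78.1 and 46.8. The difference was 3.58 in DG, 1.96 in CA1 and -2.78 in CA3, each called by limma. Cldn11 had medians of 872 in DG, 1736 in CA1 and 3194 in CA3 in R1-R2, and 2196, 3043 and 1801 in R9. C1ql3 had medians of 931 in DG and 151 in CA3 in R1-R2, and 539 and 455 in R9.

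Within rats, the order of the subfields differed between the series. The mean centred level of the cilium list was highest in CA3 in 18 of 18 R1-R2 rats, and in R9 it was highest in DG in 5 rats, in CA1 in 6 and in CA3 in 5. The 5 rats with the highest level in DG were R9860 and, with a DG label in doubt, R9781, R9872, R9874 and R9881. The DG library exceeded the CA3 library in 0 of 18 R1-R2 rats and in 9 of 16 R9 rats for this list, and in the same numbers of rats for the oligodendrocyte list. R9781, R9872, R9874 and R9881 are among the 9 R9 rats for both lists. Granule neuron markers were above CA3 in the DG library in 18 of 18 and 13 of 16 rats.

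**Figure D4:**
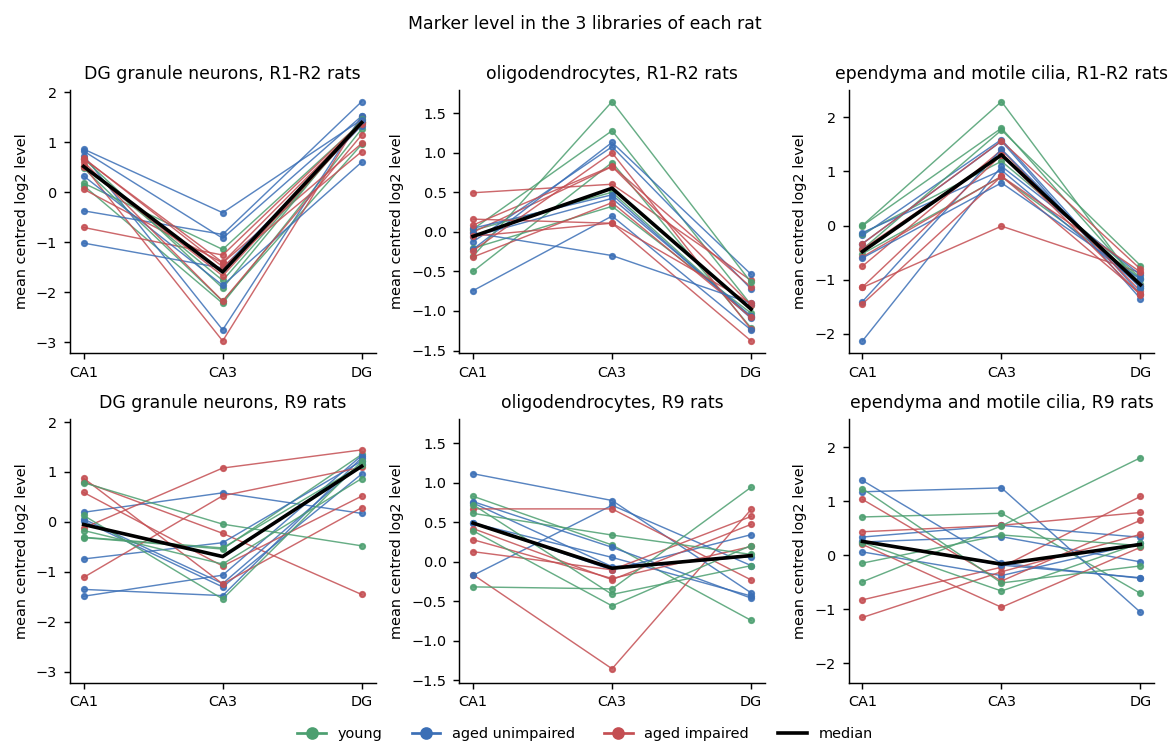
Mean centred log2 level of 3 marker lists in the CA1, CA3 and DG libraries of each rat, with 1 thin line per rat coloured by age and memory group, the median in black, and the 18 R1-R2 rats above the 16 R9 rats. In R1-R2 the median of the cilium list runs from -0.48 in CA1 to 1.31 in CA3 and -1.10 in DG, and in R9 from 0.26 to -0.17 and 0.20. The 5 R9 libraries whose DG label is in doubt are included.

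The difference in DG was tested against that in the other subfields on the values of each rat, DG minus the mean of CA1 and CA3. Of 16374 genes, 1247 had a series difference that was higher in DG (7.62%) and 1172 had one that was lower (7.16%). The 5 R9 rats whose DG label is in doubt are included, and this comparison was not fitted without them. All 12 oligodendrocyte genes were higher in this comparison (median 1.08), as were 10 of 17 cilium genes, with 1 lower (median 1.24). Genes that had passed the filter in DG through 1 series alone were not separated in these counts. Of the granule neuron genes 4 of 10 were lower (median -0.83), and of the choroid plexus genes 1 of 14 was higher and 1 lower (median -0.53). Immediate early genes had 2 lower of 11, glucocorticoid targets 2 higher of 6, and clock genes 6 lower of 14. In this comparison the median of all genes was -0.01.

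Ppp1r1a, an inhibitor of protein phosphatase 1, was the first gene in the lower direction. It ranged from 674 to 1588 in the R9 DG (median 1147) and from 994 to 2264 in R1-R2 (median 1595), and its medians in CA3 were 946 and 589.7. The within-rat difference was -1.09 ± 0.17 (limma, adjusted p = 0.00011). Dpt, dermatopontin, had medians of 1.77 in the R9 DG and 11.6 in R1-R2 and, in CA3, of 16.5 and 1.74, a within-rat difference of -3.55 ± 0.58. In DG it reached the mean of 5 only through R1-R2. For Ngef, an exchange factor of neuronal growth cones, the difference lay mostly in CA3 (1.59) and not in DG (-0.27, adjusted p = 0.104). Its highest R9 DG value, 3684, was that of R9865, and on omission of R9865 the DG difference was called (-0.36, adjusted p = 0.00555). Cryab was higher in R9 in DG (1.22) and CA1 (1.15) but not in CA3 (-0.07).

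Within the age and memory groups, the medians of the 5 lists given next had the same sign in all 3 groups. Other lists did so too, among them astrocytes and microglia, while the median of the interneuron list changed sign. The median difference of oligodendrocyte genes was 1.07 in young, 0.82 in AU and 1.36 in AI rats, and that of cilium genes 1.03, 0.55 and 1.21. Without Tmem212, Spag17 and Mlf1, which passed the filter over all 34 DG libraries only through R9, the cilium medians were 0.66, 0.49 and 1.17. The filter was applied anew within each group. Other genes that passed it there through R9 alone were not separated, so these medians and the counts below can include them. Granule neuron genes were at -0.48, -0.32 and -0.81, immediate early genes at -0.69, -0.29 and -0.33, and glucocorticoid targets at 0.35, 0.29 and 0.32. Calls by limma were fewer. In young, AU and AI rats 10, 1 and 12 of 12 oligodendrocyte genes were higher. Of the cilium genes other than Tmem212, Spag17 and Mlf1, 0 of 14, 0 of 13 and 4 of 14 were higher, and 1 was lower in young rats. In the whole cilium list, 8, 8 and 13 genes were at an unadjusted p under 0.05. Over all genes, 1182 of 16177, 12 of 16141 and 240 of 16190 were called higher, and 893, 0 and 47 lower. The granule neuron list had 0 calls in each group, with 3, 2 and 6 genes at an unadjusted p under 0.05. Of the immediate early genes 6, 0 and 0 were lower (8, 4 and 4 at an unadjusted p under 0.05), and of the glucocorticoid targets 2, 0 and 0 were higher (4, 1 and 3). Fos differed by -1.41 in young, -1.05 in AU and -0.81 in AI rats, and Cfap43 by 4.04, 2.59 and 4.19. Of the 5 libraries whose label is in doubt, those of R9781, R9872 and R9874 are from AI rats. That of R9881 is from a young rat and that of R9865 from an AU rat. The groups were not fitted without them.

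Counts of calls were very different, with 2075 in the 10 young rats, 12 in the 12 AU rats and 287 in the 12 AI rats by limma, and 5043, 1188 and 2163 genes at an unadjusted p under 0.05. A test of the difference between the groups called no gene. The interaction of series and status had 0 genes under an adjusted p of 0.05 among 16192 (limma F test, smallest adjusted p 0.249), with 405 at an unadjusted p under 0.05. With 5 to 7 rats per series and group, this test cannot show that the series difference was the same in the groups.

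**Figure D5:**
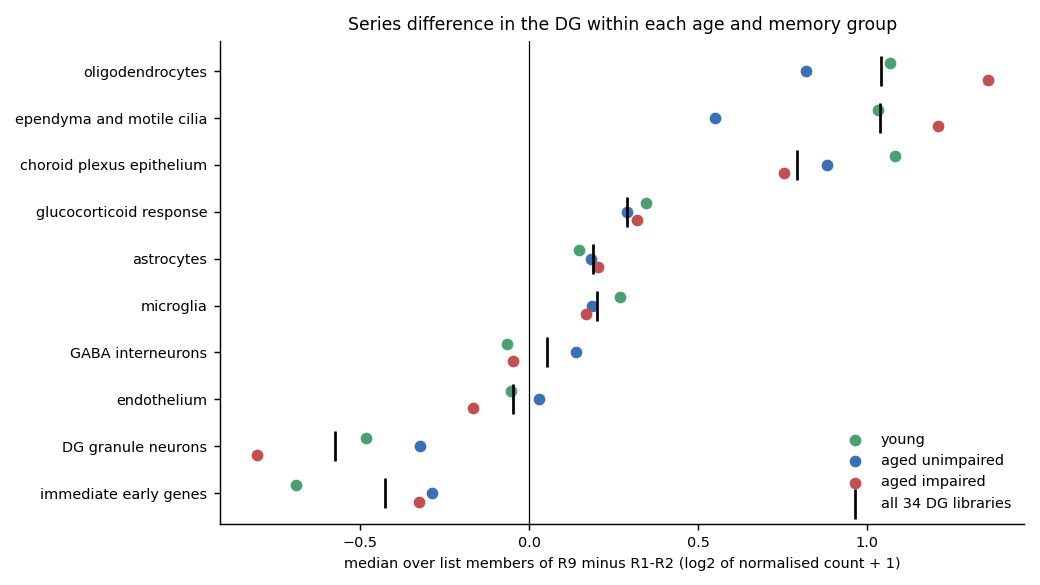
Median difference R9 minus R1-R2 of 10 marker lists in the DG, on the horizontal axis as log2(normalised count + 1), within young, AU and AI rats (coloured points) and over all 34 DG libraries (black bars). The medians of oligodendrocyte genes are 1.07, 0.82 and 1.36 and those of granule neuron genes -0.48, -0.32 and -0.81. The 5 libraries whose label is in doubt are included, as are genes that passed the filter only through R9.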

How the data were processed

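The authors ran poly-A mRNA of CA1, CA3 and DG from 34 rats on the Ion Proton. Per the labels and the submitters' processing notes, reads were aligned to rn5 with TopHat2 and Bowtie2, counted on genes with featureCounts 1.4.4 and scaled with DESeq2 1.10.1. The deposited signal values are normalised counts of 26689 genes, of which 4719 have no symbol. Division by the smallest step of each library gave whole reads for 100% of the 1894189 values above 0 (tolerance 1e-06). Depth in DG ranged from 4478984 to 18739670 recovered reads, and low genes rest on few reads.

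Series were read from the rat identifiers and groups from the sample labels. Tests used limma 3.58.1 (eBayes with trend) in R 4.3.3 with a pseudocount of 1 before taking log2 and with status as covariate. Genes whose mean over the libraries fitted was under 5 were left out. The within-rat comparison used DG minus the mean of CA1 and CA3, the 3 libraries of a number being from 1 animal. Scores are means of centred log2 values. Scripts were tested on simulated data. Alternatives were pseudocounts of 0.5 and 5, no filter or a mean of at least 20, TMM, edgeR 4.0.16 and DESeq2 1.42.0 on the recovered reads, covariates, subsets of rats and omission of single libraries.

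Named genes are the 12 most significant in either direction in DG, the 3 most abundant and up to 3 most changed called members of each of 27 marker lists, the 6 first in each direction of the within-rat comparison, and separated genes. Members and lists were chosen with earlier results of these data known. Of 290 list entries 252 were in the table.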

Additional observations from a re-analysis of the deposited data

Results flagged for a closer look

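The series difference in DG departed from that in CA1 and CA3 of the same rats in 2419 genes, by the test on within-rat differences. That test includes the 5 rats whose DG label is in doubt and was not fitted without them. Among the first 6 genes in each direction, it was higher in DG for Cfap44 (5.37), Tmem212 (4.59), Spag17 (4.53), Dnah6 (4.12), Tnnt1 (3.70) and Fhad1 (3.0) and lower for Dpt (-3.55), Ngef (-1.10), Ppp1r1a (-1.09), Tbc1d1 (-0.75), Spry2 (-0.59) and Adcy2 (-0.55), all on the log2 scale. In DG, Cfap44, Tmem212, Spag17 and Fhad1 reached the mean of 5 only through R9, and Dpt only through R1-R2. These genes had to differ in DG and were not separated in the within-rat test. In DG alone, Ngef was not called, and Tbc1d1 and Adcy2 were called with all libraries but not without the 5 libraries whose granule neuron markers were below another subfield of their rat. The call of Adcy2 was also lost on omission of R9781 alone (-0.20, adjusted p = 0.0529 by limma). What differed between the series of rats was not tested.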

How the results depend on the processing

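The 3120 calls in DG became 2075 in young, 12 in AU and 287 in AI rats (the cause was not tested), and ranged from 2292 (without R9870) to 4164 (without R9865) on omission of single libraries. Pseudocounts, filters, TMM, edgeR, DESeq2, covariates and the other subsets gave 2698 to 4426. Without the rat as a block, the within-rat comparison gave 1516 calls in place of 2419. The pairing comes from the animal, and none of the 12 genes named there lost its call without the block. For the counts in CA1, CA3, within rats and for the interaction, other pseudocounts, filters and TMM changed no count by over 1.5 times. No called direction reversed. Of 86 named genes called in DG, 76 kept the call on omission of any 1 library. Another 33 genes took the other sign in some settings (107 in all) without passing in either. The 2 settings without the 5 libraries or the 7 rats listed first were chosen after the data were seen. Low genes such as Tmem212 rest on few reads.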
